A study of Mus musculus with 8 samples.

Results

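Claudins were followed in 8 single mouse hearts at E10.5, across the 10 family members Cldn1, Cldn3, Cldn4, Cldn5, Cldn6, Cldn7, Cldn8, Cldn11, Cldn12 and Cldn15. All probe sets that the array annotation gives to these symbols or their synonyms were taken, 15 of the 22690 on the array, and they covered 9 of the 10 genes among 12394 named genes. Cldn12 had no probe set by that annotation. The list was chosen by the KO minus WT differences of these same hearts, in which Cldn8 and Cldn11 were among the larger ones. Genotype values of the claudins, also within sets of hearts, are therefore given here as a description, with no p.

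The study compared hearts lacking Dbh, the gene for dopamine beta-hydroxylase that makes noradrenaline from dopamine, with hearts that carry it. The groups were 4 Dbh-/- hearts (KO) and 4 Dbh+/+ hearts (WT), matched for age and size, each hybridised alone on an Affymetrix Mouse 430A 2.0 array. Embryos were checked for viability and heart rate by ultrasound just before the hearts were taken, and their total RNA came from a Trizol extraction. The labels used here do not state the strain, the design of the Dbh allele or the litters. Sample titles carry a number that no label explains. It is 541 for WT 3, WT 4, KO 3 and KO 4, it is 569 for KO 1, KO 2 and WT 2, and it is 570 for WT 1 alone.

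Claudins are membrane proteins with 4 membrane passes that form the strands of tight junctions, the seals between neighbouring cells of an epithelium or endothelium. Some seal the gap between cells, others line pores for small ions, and the mix in a cell sets what its junctions let through. Heart muscle cells are not epithelial, and in the heart claudins are known mainly from endothelium, where Cldn5 is the principal member. Epithelia such as gut, kidney tubule, skin and embryonic surface layers carry several claudins at once.

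The values are MAS5 signals, a linear brightness per probe set that the array software sets from matched and mismatched probes. The software also calls each probe set Present, Marginal or Absent on each array. The share of probe sets with a Present call ran from 65.2% to 71.6% over the arrays, the median signal ran from 38.4 to 64.1, and the 5' to 3' signal ratio of Gapdh from 0.686 to 0.775. All 8 heart muscle markers were Present in all 8 hearts, with a summed signal of 17169 to 34585. One array each of 4 hearts per group limits the precision, and signals of different probe sets do not compare the amounts of their transcripts. Whole hearts were measured, so fewer cells of a type and less RNA per cell cannot be told apart.

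A probe set was tested where it was Present in at least 3 of the 8 hearts, which 16292 probe sets were. Of the 15 claudin probe sets 8 passed, and they stand for the 7 genes Cldn1, Cldn3, Cldn5, Cldn6, Cldn7, Cldn8 and Cldn11. The last to pass was a second Cldn3 probe set, Present in 3 hearts with a median signal of 8.65. The first to miss were a pair of further Cldn1 probe sets, each Present in 1 heart, with medians of 5.67 and 6.80. Cldn4 and Cldn15 were Absent in 8 of 8 hearts. Log2 values below are log2(signal + 16), which understates differences at low signal.

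Promoter windows are shown for Cldn6 and Cldn7, whose signals followed each other over the hearts, for Cldn11, the only one of these claudins Present in every heart, and for Cldn5, the endothelial member. The windows run from 250 bases before to 50 after an annotated start, are from RefSeq (GRCm38.p6) and are written 5′ to 3′ on the gene's strand. Windows were found for 9 of the 10 genes, and a further upstream window of Cldn7 is not shown. The Cldn6 window lies at chr17:23679115-23679414 (plus strand), next to Cldn9. The Cldn7 window lies at chr11:69965171-69965470 (plus), Cldn11 at chr3:31149670-31149969 (plus) and Cldn5 at chr16:18776597-18776896 (plus). Capitals mark CACCTG, the E-box bound by SNAI and ZEB factors (read as CAGGTG on the other strand), or AACCNGTT, a form of the motif of Grainyhead-like factors. Both strands were searched.
Cldn6: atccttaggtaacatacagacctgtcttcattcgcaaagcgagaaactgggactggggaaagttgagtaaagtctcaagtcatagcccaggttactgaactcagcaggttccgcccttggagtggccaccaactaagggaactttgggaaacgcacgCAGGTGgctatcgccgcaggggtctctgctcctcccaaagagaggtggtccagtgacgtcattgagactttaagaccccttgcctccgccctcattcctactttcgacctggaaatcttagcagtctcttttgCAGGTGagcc
Cldn7: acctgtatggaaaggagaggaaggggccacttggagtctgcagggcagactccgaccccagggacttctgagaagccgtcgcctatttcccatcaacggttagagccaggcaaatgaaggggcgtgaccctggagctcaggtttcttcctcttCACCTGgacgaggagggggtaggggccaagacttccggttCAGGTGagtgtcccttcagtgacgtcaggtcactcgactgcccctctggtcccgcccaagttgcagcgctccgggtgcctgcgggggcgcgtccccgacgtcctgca
Cldn11: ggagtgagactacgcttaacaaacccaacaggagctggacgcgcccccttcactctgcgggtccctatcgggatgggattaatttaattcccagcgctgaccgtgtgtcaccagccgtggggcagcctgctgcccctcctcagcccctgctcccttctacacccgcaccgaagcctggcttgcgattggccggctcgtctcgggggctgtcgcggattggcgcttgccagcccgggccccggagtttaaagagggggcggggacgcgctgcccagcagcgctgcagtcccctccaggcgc
Cldn5: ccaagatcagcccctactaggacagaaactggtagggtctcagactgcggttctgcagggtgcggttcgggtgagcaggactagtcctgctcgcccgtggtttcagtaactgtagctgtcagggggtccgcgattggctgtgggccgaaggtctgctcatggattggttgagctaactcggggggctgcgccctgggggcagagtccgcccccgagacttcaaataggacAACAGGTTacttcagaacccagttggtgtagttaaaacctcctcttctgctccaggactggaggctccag

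The Cldn6 and Cldn7 windows each held 2 CACCTG matches, and those 2 genes had no AACCNGTT match. At least 1 CACCTG match was found in 20.2% of 32851 promoter windows of this length. The pair was not particular to these genes, since the window of Cldn4, Absent in every heart, also held 2 and that of Cldn3 held 1. The upstream Cldn7 window held 0. The Cldn5 window held 1 AACCNGTT match, which 2.09% of windows had, and the Cldn11 window held neither motif. The GC content was 52.3% in the Cldn6 window, 62.3% in Cldn7, 66.3% in Cldn11 and 58.3% in Cldn5. None of the 4 windows held TATAAA, found in 13.6% of windows. These matches describe letters in a window and were not tested for binding.

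Among the claudins of epithelial barriers, Cldn6, a member known from embryonic epithelia, varied most between hearts. Its signals were 95.9, 133.5, 494.4 and 8.61 in WT 1 to WT 4, and 2.91, 107.9, 892.8 and 538.1 in KO 1 to KO 4. The probe set was Present in all hearts but KO 1. WT 3, KO 3 and KO 4 were high, WT 4 and KO 1 were low, and the genotypes overlapped. The WT mean was 183 ± 214 and the KO mean 385 ± 410 (SD, n = 4 each), so that each SD exceeded its mean.

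Cldn7, which is known from gut and kidney epithelium and binds the adhesion protein EPCAM, had the same high and low hearts. Its signals were 31.95, 55.5, 135.9 and 1.08 in WT 1 to WT 4, and 7.95, 17.4, 295 and 175 in KO 1 to KO 4. It was Absent in WT 4 and KO 1 and Present in the other 6. KO 3, KO 4 and WT 3 were again the 3 highest hearts, and the genotypes overlapped. The WT mean was 56.1 ± 57.7 and the KO mean 123.9 ± 137.5 (SD, n = 4 each).

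Cldn1, the claudin that seals the epidermis, was Present in 7 hearts through 1 of its 4 probe sets. The signals were 18.4, 9.21, 51.5 and 14.8 in WT 1 to WT 4, and 10.1, 22.1, 34.96 and 23.2 in KO 1 to KO 4. WT 3 was the highest heart and the genotypes overlapped throughout, with a WT mean of 23.5 ± 19.1 and a KO mean of 22.6 ± 10.2 (SD, n = 4 each). The other 3 Cldn1 probe sets had signals of at most 9.73.

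Cldn3, a sealing claudin of gut and lung epithelium, was near the limit of detection in most hearts. Its main probe set had signals of 10.9, 11.7, 11.2 and 11.1 in WT 1 to WT 4, and 9.53, 12.9, 40.0 and 17.9 in KO 1 to KO 4. It was Present in 2 of 4 WT hearts (WT 1 and WT 3) and 3 of 4 KO hearts (KO 1, KO 3 and KO 4). KO 3 and KO 4 were above all other hearts, while KO 1 was the lowest of all. The WT mean was 11.2 ± 0.341 and the KO mean 20.1 ± 13.7 (SD, n = 4 each). A second tested probe set, Present in 3 hearts, had signals of 10.8, 3.34, 11.4 and 7.68 in WT 1 to WT 4. In KO 1 to KO 4 it had 2.97, 9.12, 18.6 and 8.19. There KO 4 was below WT 1, WT 3 and KO 2, and the log2 difference, KO minus WT, was 0.06. Cldn4, the neighbour of Cldn3 on chromosome 5 and another epithelial sealing claudin, was Absent in every heart, with a highest signal of 10.02 in KO 3.

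Cldn5, the claudin of endothelial cells, including those of the blood-brain barrier, had signals of 22.6, 9.88, 49.1 and 16.8 in WT 1 to WT 4. In KO 1 to KO 4 they were 3.12, 28.1, 64.9 and 21.5. It was Absent in WT 2 and KO 1. KO 3 and WT 3 were the highest hearts, KO 1 was the lowest, and the genotypes overlapped. The WT mean was 24.6 ± 17.1 and the KO mean 29.4 ± 25.9 (SD, n = 4 each).

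Cldn8, which seals kidney tubules against the passage of cations, was Present in 1 of 4 WT hearts (WT 3) and 3 of 4 KO hearts (all but KO 1). The signals were 5.07, 2.50, 9.25 and 4.73 in WT 1 to WT 4, and 1.19, 17.2, 53.3 and 75.8 in KO 1 to KO 4. KO 2, KO 3 and KO 4 were above every WT heart and KO 1 was below every WT heart. The WT mean was 5.39 ± 2.82 and the KO mean 36.9 ± 33.9 (SD, n = 4 each). Cldn15, a claudin that forms cation pores in the gut, was Absent in every heart, with signals of at most 10.9.

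Cldn11, which forms the junctions of myelin sheaths and of Sertoli cells, was Present in all 8 hearts. The signals were 19.8, 20.5, 18.4 and 12.6 in WT 1 to WT 4, and 12.1, 38.7, 106.8 and 110.2 in KO 1 to KO 4. As with Cldn8, KO 2, KO 3 and KO 4 were above every WT heart while KO 1 was below them all. The WT mean was 17.8 ± 3.56 and the KO mean 67.0 ± 49.2 (SD, n = 4 each).

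**Figure D1:**
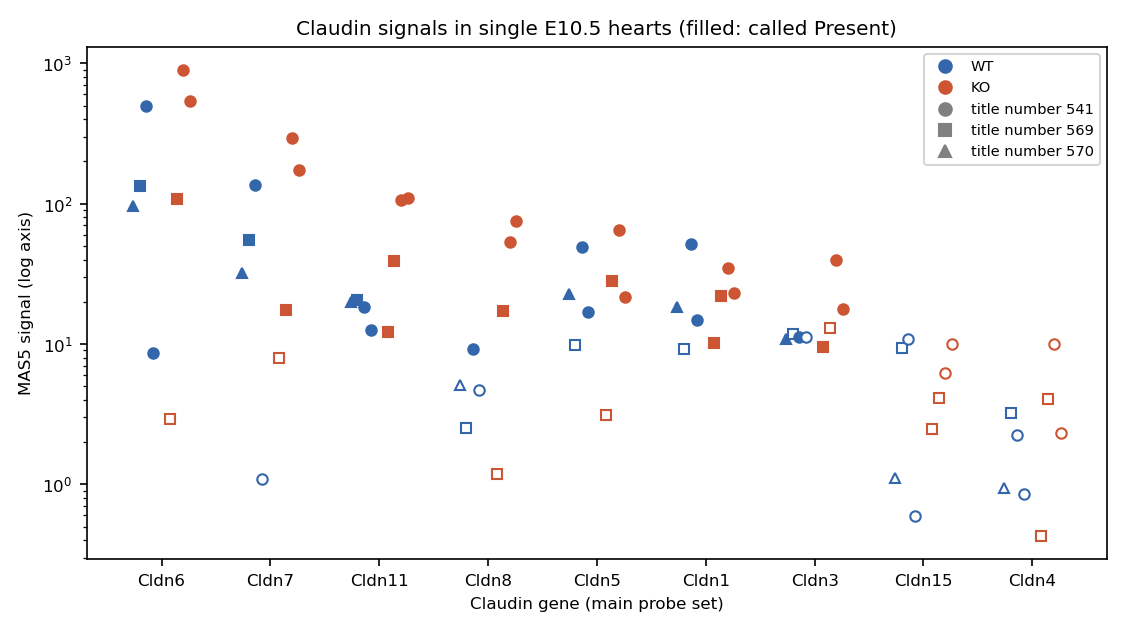
MAS5 signal (log axis) of the main probe set of 9 claudins in each of 8 hearts, blue for WT and red for KO, with the marker shape giving the title number and filled symbols marking a Present call. Cldn6 runs from 2.91 in KO 1 to 892.8 in KO 3, and Cldn4 and Cldn15 have no filled symbol.

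The study's question for these genes was whether their transcripts differ between hearts without and with Dbh. As a description, the log2 differences, KO minus WT, were 1.05 for Cldn11, 1.04 for Cldn8, 0.62 for Cldn6, 0.60 for Cldn7, 0.34 for Cldn3, 0.07 for Cldn5 and 0.04 for Cldn1. The SD between hearts of 1 genotype was 0.74 for Cldn11 and 0.78 for Cldn8, but 2.18 for Cldn6 and 1.59 for Cldn7. That SD was 0.35 for Cldn3, 0.72 for Cldn5 and 0.52 for Cldn1. For all tested claudins but Cldn8 and Cldn11 the difference was thus smaller than the spread between hearts of the same genotype. The difference was above 0 for 7 of the 7 tested claudins, as it was for 52% of all tested probe sets, with a median of 0.60 for the claudins and 0.01 over all. The claudins were chosen with this contrast known, so nothing is read from that count.

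In all 15 claudin probe sets the genotypes overlapped. Among all tested probe sets 0.209% had every KO heart above every WT heart and 0.246% the reverse. In the whole table limma called 0 probe sets (0%), a call being an adjusted p below 0.05, and its unadjusted p was below 0.05 for 217 (1.33%). A per-probe-set test with unequal variances on linear signals gave 0 and 103. Leaving out 1 heart at a time, the difference lay between 0.68 and 1.49 for Cldn8 and between 0.77 and 1.49 for Cldn11. It turned to -0.14 for Cldn6 without KO 3 or without WT 4, and to -0.03 for Cldn7 without KO 3. Each of these fits kept KO 3 or KO 4, the highest hearts in Cldn8 and Cldn11. The differences of these same hearts chose the list, so the ranges support nothing.

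The 541 hearts and the hearts of the other title numbers held 2 KO and 2 WT hearts each, and the claudin differences were not alike in these sets. Among the 541 hearts, KO minus WT was 2.66 for Cldn6, 2.26 for Cldn7, 1.99 for Cldn11, 1.80 for Cldn8 and 0.68 for Cldn3, and for these 5 genes both KO hearts were above both WT hearts. Among the 569 and 570 hearts the same differences were -1.42, -1.05, 0.12, 0.27 and -0.01, in that order of genes. There both KO hearts were below both WT hearts for Cldn7 alone of these 5. Cldn5 had 0.25 and -0.12, and Cldn1 had -0.03 and 0.10. The second tested Cldn3 probe set had 0.18 and -0.06, and its KO and WT hearts overlapped in both sets. How many of all tested probe sets separate 2 KO from 2 WT hearts in this way was not counted. The KO and WT values behind such separation also chose the list, so nothing is read from the number of claudins that show it.

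**Figure D2:**
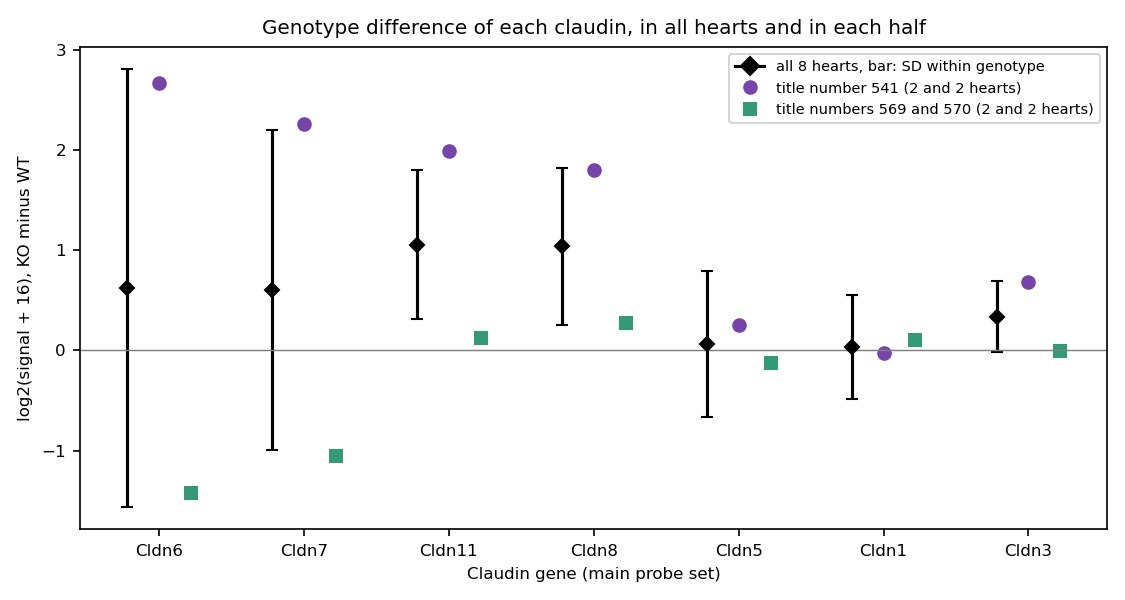
Log2 difference, KO minus WT, of the main probe set of 7 tested claudins in all 8 hearts (black, bar: SD between hearts of 1 genotype), in the 541 hearts (purple) and in the 569 and 570 hearts (green). Cldn6 and Cldn7 lie above 0 in the 541 hearts and below 0 in the others, while Cldn11 and Cldn8 lie near 2 in the 541 hearts and near 0 in the others.

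The gap between these 2 sets of hearts, the KO minus WT difference in 541 minus that in the others, was 4.08 log2 units for Cldn6, 3.31 for Cldn7, 1.87 for Cldn11, 1.53 for Cldn8, 0.69 for Cldn3, 0.38 for Cldn5 and -0.13 for Cldn1. It is made from the KO and WT values that chose the list, so it stands as a description. Of all tested probe sets, 70 (0.43%) passed limma's test of this gap, with errors set by the signal level alone, because the fit found infinite prior degrees of freedom and gave no weight to each probe set's own spread. After quantile normalization between arrays the gap was 4.18 for Cldn6 and 3.31 for Cldn7, and 1 probe set passed. Without WT 4 the gap was 1.89 for Cldn6 and 1.73 for Cldn7, and without KO 1 it was 2.72 and 3.07.

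Signals in the 541 hearts were also set against those in the other 4 hearts, with genotype in the fit. Cldn6 was higher in 541 by 1.83 ± 0.31 on the log2 scale (SE, limma adjusted p = 9.86e-07), Cldn7 by 1.45 ± 0.28 (3.71e-05) and Cldn8 by 0.98 ± 0.23 (0.00172), and 1.83% of all probe sets were called higher. Cldn8 entered the test through 3 Present calls in the 541 hearts and 1 in the others. With no filter on Present calls none of these 3 claudins was called (limma adjusted p = 0.211, 0.187 and 0.0647). Counting both directions, 2.95% of all probe sets were called. Cldn5 at 0.73 (limma adjusted p = 0.0780), Cldn11 at 0.73 (0.118), Cldn1 at 0.57 (0.276) and Cldn3 at 0.34 (0.684) did not pass. The difference was above 0 in 7 of 7 tested claudins and in 42.2% of all tested probe sets, and Cldn4 and Cldn15 did not enter this count.

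These calls rested on the same kind of error, and the 541 hearts overlapped the others in all 15 claudin probe sets. Every 541 heart was above every other heart in 1.26% of all tested probe sets, and below in 3.9%. Exact two-sided permutation tests over the 70 ways to pick 4 hearts, whose smallest possible p is 0.0286, gave p = 0.286 for Cldn6, 0.200 for Cldn7 and 0.200 for Cldn8, and the smallest of the 7 was 0.114, for Cldn1. Adjusted over the 7 exact tests, p ran from 0.333 to 0.371. After quantile normalization the differences were 1.91 for Cldn6, 1.42 for Cldn7 and 0.95 for Cldn8, with limma adjusted p of 0.325, 0.303 and 0.146. Without KO 1, Cldn6 (limma adjusted p = 0.133) and Cldn8 (0.188) lost the call, and without KO 4 Cldn8 did (0.111). Without WT 4, limma also called Cldn5 (adjusted p = 0.00588), Cldn11 (0.0123) and Cldn1 (0.0451). The 5' to 3' signal ratio of beta-actin was 0.407, 0.390, 0.401 and 0.517 in WT 3, KO 3, KO 4 and WT 4. It was 0.483 to 0.527 in the other hearts. That of Gapdh was 0.694, 0.686, 0.702 and 0.765 in the same order, and 0.724 to 0.775 in the others. WT 3, KO 3 and KO 4, lowest in both ratios, were also the highest hearts in Cldn6 and Cldn7. The part of these ratios in the claudin values and in their relations to markers was not tested.

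Markers of several tissues moved in the same comparison. Between the 541 and the other hearts the log2 difference was above 0 for 6 of 7 tested epithelial markers (median 0.88), with Epcam, Esrp1 and Grhl2 called higher, and for 7 of 8 neural markers (0.89), with 4 called higher. It was above 0 for 7 of 7 red blood cell markers (1.38, 4 called higher) and for 6 of 6 liver and endoderm markers (1.45, 5 called higher). It was above 0 for 0 of 8 heart muscle markers (-0.60), with Myh7, Tnni1 and Ryr2 called lower, and for 2 of 12 endothelial markers (-0.30, none called). All these calls are limma's as deposited, from the fit that ignored each probe set's own spread. After quantile normalization limma called 0 epithelial, 0 neural and 0 liver and endoderm markers. It called 6 red blood cell markers higher, and Myh6 and Tnni1 lower. Afp, Ttr and Hnf4a were high in WT 3 alone (3396, 1964 and 913), with at most 29.1, 49.1 and 14.4 in the other hearts. Foxa1 and Foxa2, also called, were highest in WT 3, KO 3 and KO 4. The part of these tissues in the claudin differences was not tested.

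Claudins mark epithelia, endothelia and mesothelia, so their signals were set against markers of those tissues, heart by heart. A marker score was the mean of the centred log2 signals of the tested markers, 7 epithelial (Krt19 and Esrp1 of highest signal), 12 endothelial and 5 epicardial and mesothelial ones. Of 10 epithelial markers on the array, 2 were Present in all hearts and Elf3 was Absent in all, and the 10 summed to between 667 and 1043 in WT and between 314 and 2575 in KO. All 12 endothelial markers were tested and 10 were Present in every heart, with sums of 3298 to 4468 in WT and 2225 to 4705 in KO. Of 6 epicardial and mesothelial markers on the array 5 were Present in every heart, summing to 1339 to 1782 in WT and 866 to 1924 in KO, and Msln was Absent in all.

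Cldn6 and Cldn7 followed the epithelial score closely. The score ran from -1.31 in KO 1 and -1.02 in WT 4 through -0.32 (KO 2), -0.17 (WT 1) and 0.02 (WT 2) to 0.52 in WT 3, 0.87 in KO 4 and 1.40 in KO 3. Over the 8 hearts Cldn6 had r = 0.98 and rho = 0.98 (exact permutation p = 4.96e-05, adjusted over 21 relations 0.00104), and r was 0.98 without KO 1 and KO 3, the hearts farthest from the median score. Cldn7 had r = 0.97 and rho = 0.98 (exact permutation p = 0.000149, adjusted 0.00156), with 0.99 without the same hearts. Rank correlations had adjusted exact permutation p of 0.00417 for both genes. Leaving out any 1 heart kept r between 0.98 and 0.99 for Cldn6 and between 0.95 and 0.99 for Cldn7. The claudins and the marker lists were chosen with earlier results of these same hearts known. The p of these relations, and of those that follow, is therefore no independent support. How many of all tested probe sets follow these scores as closely was not counted. With Cldn6 itself, 255 tested, named probe sets had r above 0.9 after quantile normalization.

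The other 5 claudins were less close to the epithelial score. Cldn3 had r = 0.77 (exact permutation p = 0.00345, adjusted 0.0241), but rho = 0.79 did not pass (adjusted 0.193, exact permutation), and without KO 1 and KO 3 r was 0.62 over 6 hearts (exact permutation p = 0.224). Cldn11 had r = 0.81, Cldn8 0.79 and Cldn5 0.78 (adjusted exact permutation p = 0.0821 for each), and Cldn1 had 0.68 (adjusted 0.190). After quantile normalization Cldn8 and Cldn11 were called (both r = 0.79, adjusted exact permutation p = 0.0406) and Cldn3 was not (r = 0.68, adjusted 0.0853). Within the 541 hearts, and within the others, there are 4 hearts, too few for a correlation. In the 541 hearts the order of Cldn6 signals, WT 4, WT 3, KO 4 and KO 3 from low to high, was that of the score. In the other hearts KO 1 was lowest and WT 2 highest on both, with WT 1 and KO 2 in opposite order.

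Epcam, Cdh1 and Grhl2, an adhesion protein that binds claudin 7, the cadherin of epithelial cells and a transcription factor of epithelial genes, show the hearts concerned. Epcam had signals of 44.9, 19.1, 113.0 and 9.95 in WT 1 to WT 4 and 8.26, 26.9, 183.3 and 182.9 in KO 1 to KO 4. Cdh1 had 71.0, 79.5, 152.6 and 4.50 in WT and 9.74, 76.9, 276.9 and 207.2 in KO, in the same order of hearts. Grhl2 had 82.2, 124.5, 209.1 and 28.3 in WT and 22.6, 119.0, 496.2 and 307.4 in KO. In all 3, WT 3, KO 3 and KO 4 were the high hearts and WT 4 and KO 1 the low ones. Esrp1 and Spint1, also in the score, had the same high and low hearts. Krt19, a keratin of simple epithelia, went the other way, with its highest signal of 832.1 in WT 4. St14, the last score gene, did not follow them either, with its highest signal of 24.8 in WT 2 and its lowest of 0.741 in KO 2. A score without Krt19, chosen after seeing the data, gave r = 0.99 for Cldn6 and 0.98 for Cldn7.

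**Figure D3:**
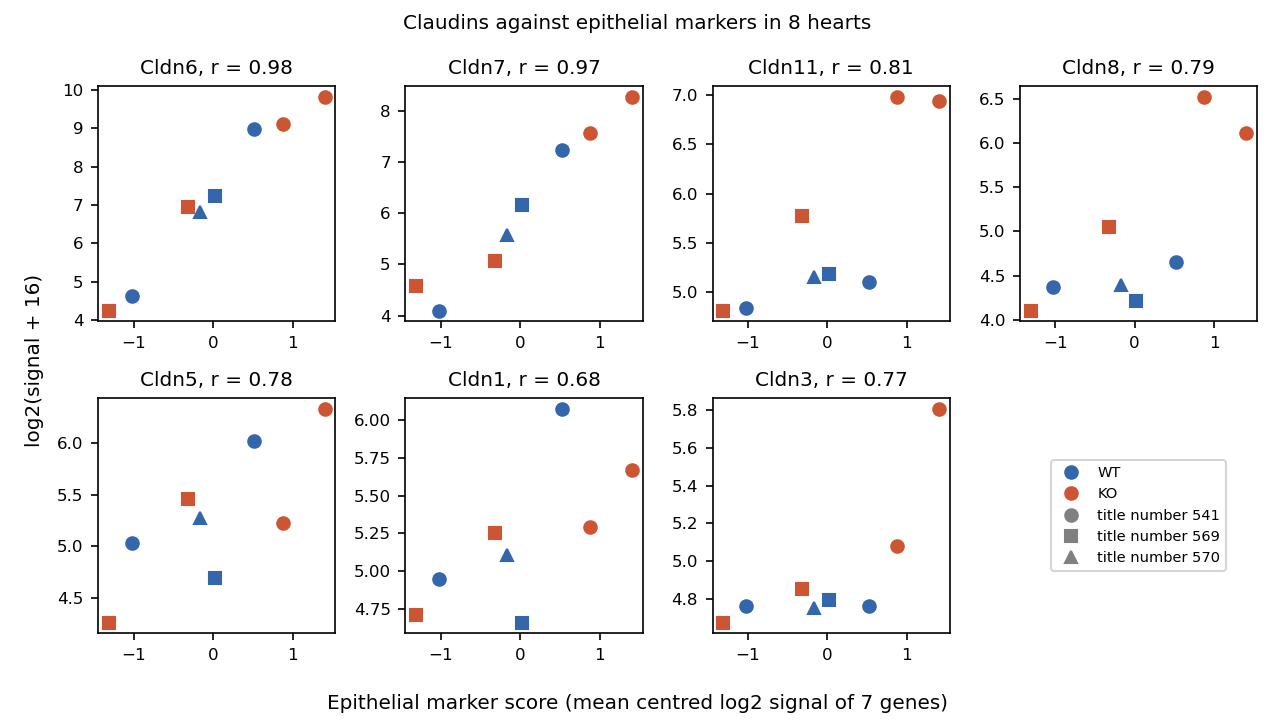
Log2(signal + 16) of 7 claudins (vertical axes, each on its own scale) against the epithelial marker score (horizontal axes) in 8 hearts, blue for WT and red for KO, with the marker shape giving the title number. Points of Cldn6 and Cldn7 lie near a line (r = 0.98 and 0.97), while in the panels of Cldn11 and Cldn8 KO 3 and KO 4 stand above the other hearts.

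No claudin had an adjusted p under 0.05 against the endothelial or the epicardial and mesothelial score with signals as deposited. Cldn5, the endothelial member, had r = 0.23 and rho = 0.33 with the endothelial score (exact permutation p = 0.589 and 0.428, adjusted 0.773 and 0.817), and r was 0.36 without KO 2 and KO 4, the hearts farthest from the median score. Scaling mattered for these scores. Cldn5 turned to r = -0.41 and rho = -0.64 with the endothelial score after quantile normalization (adjusted exact permutation p of r = 0.320). After quantile normalization Cldn6 had r = -0.86 and Cldn7 -0.91 with the endothelial score (adjusted exact permutation p = 0.00990 and 0.00243), and -0.90 and -0.93 with the epicardial and mesothelial score (0.0146 and 0.00964). Cldn8 (r = -0.77) and Cldn11 (r = -0.77) were also called against the endothelial score, with adjusted exact permutation p of 0.0466 and 0.0406.

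Further scores, added after seeing the data, were those of 8 neural and neural crest markers, 7 red blood cell markers and 8 heart muscle markers. The neural score went with Cldn6 (r = 0.93), Cldn8 (0.92), Cldn7 (0.91) and Cldn11 (0.91), each with an adjusted exact permutation p of 0.0141 over these 21 relations, and with Cldn3 (0.74, adjusted 0.0271). Without KO 3 and KO 4, the hearts farthest from its median, r was 0.94 for Cldn6, 0.81 for Cldn7, 0.67 for Cldn8, 0.62 for Cldn11 and 0.52 for Cldn3. The exact permutation p without them was 0.0139 for Cldn6 and at least 0.0569 for the other 4, over 6 hearts. Rank correlations with the neural score had an adjusted exact permutation p of 0.0380 for Cldn6, Cldn7 and Cldn8, and of 0.0762 for Cldn11 and 0.0858 for Cldn3. The red blood cell score went with Cldn5 (r = 0.86, adjusted exact permutation p = 0.0260), Cldn1 (0.84, 0.0271) and Cldn3 (0.70, 0.0497), which were 0.74, 0.77 and 0.58 without WT 2 and KO 3 (exact permutation p = 0.0694, 0.0486 and 0.232). Of these 3 the rank correlation passed for Cldn1 alone (adjusted exact permutation p = 0.0380). The heart muscle score gave no call, with r from -0.65 for Cldn1 to -0.15 for Cldn3.

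The summed neural and neural crest markers, 9 on the array with none Present in all hearts, ran from 102 in WT 4 and 107 in KO 1 to 1669 in WT 3, 1934 in KO 4 and 2039 in KO 3. Liver and endoderm markers, 8 on the array, summed to 7592 in WT 3 and to at most 239 in any other heart. The neural sum was thus high and low in the same hearts as Cldn6 and Cldn7. Between genotypes, the log2 difference was above 0 for 8 of 8 tested neural markers (median 0.77), 5 of 7 epithelial (0.61), 7 of 7 red blood cell (0.86), 3 of 12 endothelial (-0.17) and 2 of 6 liver and endoderm markers (-1.01), and limma called 0 of them. The part of these tissues in the claudin values was not tested.

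Among themselves the claudins formed close pairs, given here as a description over the same 8 arrays. Cldn8 and Cldn11 had r = 0.98, Cldn6 and Cldn7 0.96, and Cldn1 and Cldn5 0.90, and after quantile normalization 0.98, 0.96 and 0.85. Between the pairs r was lower, from 0.40 for Cldn1 with Cldn11 to 0.79 for Cldn5 with Cldn6. Cldn3 had its highest r with Cldn11, 0.83 as deposited and 0.81 after quantile normalization. The pairs were picked for their r, and such r was not counted over all probe sets. Cldn8 and Cldn11 parted from Cldn6 and Cldn7 in WT 3, which was high in Cldn6 (494.4) and Cldn7 (135.9) but not in Cldn11 (18.4) or Cldn8 (9.25).

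**Figure D4:**
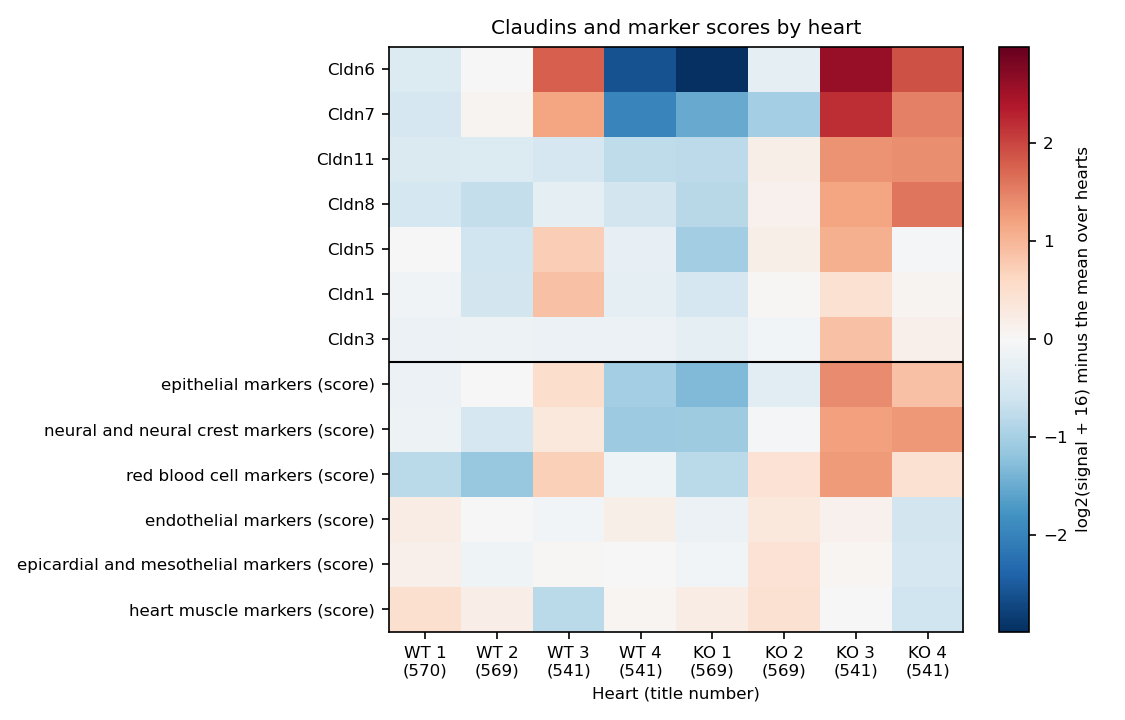
Log2(signal + 16) of 7 claudins minus each gene's mean over the hearts (upper rows) and marker scores (lower rows) in 8 hearts, with the title number under each heart and colour from blue (below the mean) to red (above). KO 3 and KO 4 are red for Cldn6, Cldn7, Cldn11 and Cldn8 and for the epithelial and neural scores, while WT 3 is red for Cldn6 and Cldn7 and not for Cldn11 or Cldn8.

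By the chosen rule the profile of Cldn6 was compared with all tested, named probe sets over the 8 hearts after quantile normalization. The 5 most alike were Pcdh18, a protocadherin (r = 0.99), Ebf3, a transcription factor of neurons and mesenchyme (0.99), Twist2, a mesenchymal transcription factor (0.99), Grhl2 (0.98) and Cdh1 (0.98). Grhl2 ranked the 8 hearts exactly as Cldn6 did. Such likeness was common, since 255 probe sets had r above 0.9 with Cldn6. Pcdh18 had signals of 226 in WT 4 and 225 in KO 1, against 1025 in WT 3, 1313 in KO 3 and 1002 in KO 4.

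Of 16 other claudins listed, 9 were on the array and 3 were tested. Cldn13, known from red blood cells in the mouse, was Present in 7 hearts, with signals of 11.9, 2.63, 64.3 and 15.95 in WT 1 to WT 4 and 12.8, 24.1, 86.6 and 65.7 in KO 1 to KO 4. It was called higher in the 541 hearts, by 1.29 ± 0.25 on the log2 scale (SE, limma adjusted p = 5.1e-05), and stayed called after quantile normalization (1.26, limma adjusted p = 0.0306). Cldn14, a claudin of inner ear and kidney, and Cldn18, of stomach and lung, were called in neither comparison, with genotype differences of 0.11 ± 0.22 and -0.03 ± 0.22 (SE). Cldn19 and Cldn23 were each Present in 1 heart. Cldn2, Cldn9, Cldn10 and Cldn16 were Absent in all 8 hearts, although Cldn9 neighbours Cldn6 and Cldn16 neighbours Cldn1 in the reference gene table (GRCm38.p6).

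Most partners of claudins in tight junctions were detected in every heart. Of 29 listed partners 25 were on the array and 20 were tested, 18 of them Present in all 8 hearts. Between genotypes 8 were above 0 and 12 below, with a median of -0.10, and limma called 0, with 0 at an unadjusted p under 0.05. The 4 of highest signal were Ybx3, a Y-box protein that binds ZO-1, Prkci, a kinase of the polarity complex, Tjp1, the scaffold ZO-1, and Mpdz, a scaffold with many PDZ domains. Their genotype differences were -0.09 ± 0.18, -0.19 ± 0.22, -0.14 ± 0.22 and 0.01 ± 0.24 (SE, limma), and Tjp1 signals ran from 1421 to 2552 over the hearts. Between the 541 and the other hearts 8 were above 0 and 12 below, and limma called 0, with 3 at an unadjusted p under 0.05. Ocln, the junction protein occludin, was Present in 5 hearts, with a WT mean signal of 15.1 ± 6.43 and a KO mean of 8.27 ± 6.35 (SD, n = 4 each).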

How the data were processed

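RNA of 4 WT and 4 KO hearts, each a separate heart per the labels, was measured on 8 arrays. The intensity values deposited by the authors are, per the file headers, linear MAS5 signals, and equal those of the deposited export to within 5e-07. Detection calls and their detection p-value per probe set were taken from that export, per the file headers. From the deposited quality sheet came, per the file headers, each array's fraction of Present calls and the 5' to 3' ratio of control transcripts. The scaling target, software version and genome build are not given in the sources used here.

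Symbols came from the platform annotation, and a gene took its tested probe set of highest mean log2 signal. Tests used limma 3.58.1 in R 4.3.3 (lmFit, and eBayes with its trend option) on log2(signal + 16), adjusted by Benjamini-Hochberg over 16292 probe sets, for genotype, for title number with genotype as covariate, and for their interaction. Relations used exact two-sided permutation of all pairings. The scripts were tested on simulated data. Members, lists and tests were chosen with earlier results of these data known. All listed claudins are reported, other claudins and partners by counts with up to 4 of highest signal named, and markers by counts and sums. Ocln, Cldn19, Cldn23, Epcam, Cdh1, Grhl2, Spint1, St14, Afp, Ttr, Hnf4a, Foxa1 and Foxa2 were named after their values were seen. Alternatives were other scalings, pseudocounts, filters, a title-number block, an unequal-variance test and leaving out hearts.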

Additional observations from a re-analysis of the deposited data

Results flagged for a closer look

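The KO minus WT difference of 2 claudins was picked out because limma's interaction fit, as deposited, called its gap between the 541 hearts and the 569 and 570 hearts (70 of all tested probe sets, 0.43%, were called). The gap was 4.08 log2 units for Cldn6 and 3.31 for Cldn7. For Cldn6, KO minus WT was 2.66 in the 541 hearts and -1.42 in the others, and for Cldn7 it was 2.26 and -1.05, each from 2 KO and 2 WT hearts. The claudins were chosen with their KO minus WT values known and the fit ignored each probe set's own spread, so the calls are no independent support. After quantile normalization the gaps were 4.18 and 3.31, and after median centring 3.86 and 3.09, with neither called. Neither was called without WT 4, and Cldn6 was not called without KO 1. The gaps of Cldn8 and Cldn11, not called as deposited, were 2.00 and 2.35 and called without KO 2, and 0.75 and 1.05 and called with a pseudocount of 64. Of 16 groups of 4 hearts examined for a single heart far from the rest, 0 held one.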

How the results depend on the processing

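In the genotype comparison limma called 0 probe sets as deposited and under other scalings, pseudocounts and filters. No label explains the title number, and the check of it is the comparison of the 541 with the other hearts. With title number as a replicate block, 40 were called (27 higher and 13 lower in KO), with values of 1.23 for Cldn8 and 1.24 for Cldn11, and 0 were called when the block was combined with quantile normalization. Within the 541 hearts 60 were called and within the 569 hearts 3, where WT 2 is the only WT heart and is assumed to vary like the KO hearts. Leaving out 1 heart gave 0 to 72, where 72 came without WT 3 and 30 without KO 1. The genotype fits with the block as deposited, within 541, within 569 and without WT 3 had infinite prior degrees of freedom. Their calls thus gave no weight to each probe set's own spread. The title number comparison called 480 as deposited, 155 with no filter on Present calls, and 130 (without WT 3) to 776 (without WT 4) when 1 heart was left out. Of the 480, 298 were higher and 182 lower in 541, against 204 and 358 after median centring. The interaction called 70 as deposited, 1 after quantile normalization, 1 after median centring, and 37 (without KO 1) to 157 (without WT 3) leaving out 1 heart. The median interaction over all tested probe sets was 0.19 as deposited and 0.02 after quantile normalization. Of the 21 relations to marker scores 3 were called as deposited, 10 after quantile normalization, and 2 to 4 leaving out 1 heart. The cause of these shifts was not tested. How many of all tested probe sets have such relations to the scores was not counted. Over 18 alternatives the genotype difference ran from 0.37 to 1.80 for Cldn8, 0.11 to 1.99 for Cldn11, -1.63 to 2.66 for Cldn6 and -1.34 to 2.26 for Cldn7. The low ends came from the 569 hearts. These differences chose the claudins, so their sign supports nothing. Over 12 alternatives r with the epithelial score stayed between 0.97 and 0.99 for Cldn6 and between 0.95 and 0.99 for Cldn7. Cldn4 and Cldn15 were not above background in any heart, which limits what can be said of them to their signals.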
